A study of Homo sapiens with 4 samples.

Results

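The cyclins, the cyclin-dependent kinases (CDKs), the CDK inhibitors and the RB family of pocket proteins were compared between a breast cancer cell line and its lung-metastatic subline. The group held 38 genes, a list of names drawn up without a threshold on these measurements, out of 34738 genes with a named transcript. All 38 were found, and for each gene the transcript with the highest mean count was used. Of these, 36 had a mean of at least 50 counts, a minimum that 15510 of all named genes passed, and the other 2, CDKN2A and CDKN2B, had 0 counts in both cell lines.

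MDA-MB-231 (the parental line below) is a human triple-negative breast cancer line with mesenchymal features, and MDA-MB-231-LM2 (LM2 below) is a subline of it with high metastatic ability to the lung. The parental line was grown in Leibovitz L-15 medium in plain air and LM2 in DMEM in air with CO2, each with fetal bovine serum, so the cell line and its culture conditions cannot be told apart. The labels listed 2 samples of each line, whereas the deposited table held 1 column of read counts per line, with totals of 130689252 counts for the parental line and 128985870 for LM2. Without replicates no test between the lines could be made, so each ratio below carries an exact (Clopper-Pearson) 95% interval of counting error alone, which leaves out the spread between cultures. In these bulk samples fewer cells of a type and less RNA per cell cannot be told apart.

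Cyclins bind and activate CDKs, and successive pairs drive the cell cycle: D cyclins with CDK4 and CDK6 in G1, E cyclins with CDK2 at entry into S phase, and A and B cyclins with CDK1 up to mitosis. The INK4 inhibitors (the CDKN2 genes) block CDK4 and CDK6, whereas the CIP/KIP inhibitors (the CDKN1 genes) bind most cyclin-CDK pairs. Active CDKs phosphorylate RB1 and its relatives RBL1 and RBL2, which otherwise hold E2F target genes in check. A separate branch of the family, with cyclins C, H, K, L and T, acts on RNA polymerase II and splicing.

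Most of the group was close to equal in the cell lines. Among the 36 measured genes, 28 were within 1.5-fold. Over 1.5-fold lower in LM2 were 5 genes (13.9%), namely CCND3, CCNA1, CDKN2D, CDKN1A and RBL2, against 15.4% of all 15510 genes at the same minimum. Over 1.5-fold higher were 3 genes (8.33%), namely CCND2, CDK4 and CCNC, against 10.7% of all genes. Past 2-fold were CCND3 alone on the lower side (2.78%, against 6.85% of all genes) and CCND2 alone on the higher side (2.78%, against 4.58%). These shares were near or below those of all genes.

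The median log2 ratio of LM2 over the parental line was 0.06 for the group and -0.005 for all genes. The middle of the group, from lower to upper quartile, ran from -0.16 to 0.25, and that of all genes from -0.36 to 0.29. The median size of the log2 ratio, sign left aside, was 0.20 in the group and 0.32 over all genes. Counting error was small beside the larger ratios. The measured members had at least 427 counts in the parental line and 375 in LM2. For the least counted members the error was not small, with log2 intervals of -0.48 to -0.08 for CDKN1C and -0.34 to 0.06 for CCNK. The interval held a ratio of 1 for 7 members, lay wholly below it for 12 and wholly above it for 17. The shares of all genes by this measure are not given, so these counts are no trait of the members. At the 1.5-fold limit, CDKN1B lay just outside (1.49-fold higher, interval 1.42 to 1.57) and CCNC just inside (1.52-fold higher, interval 1.43 to 1.62).

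**Figure D1:**
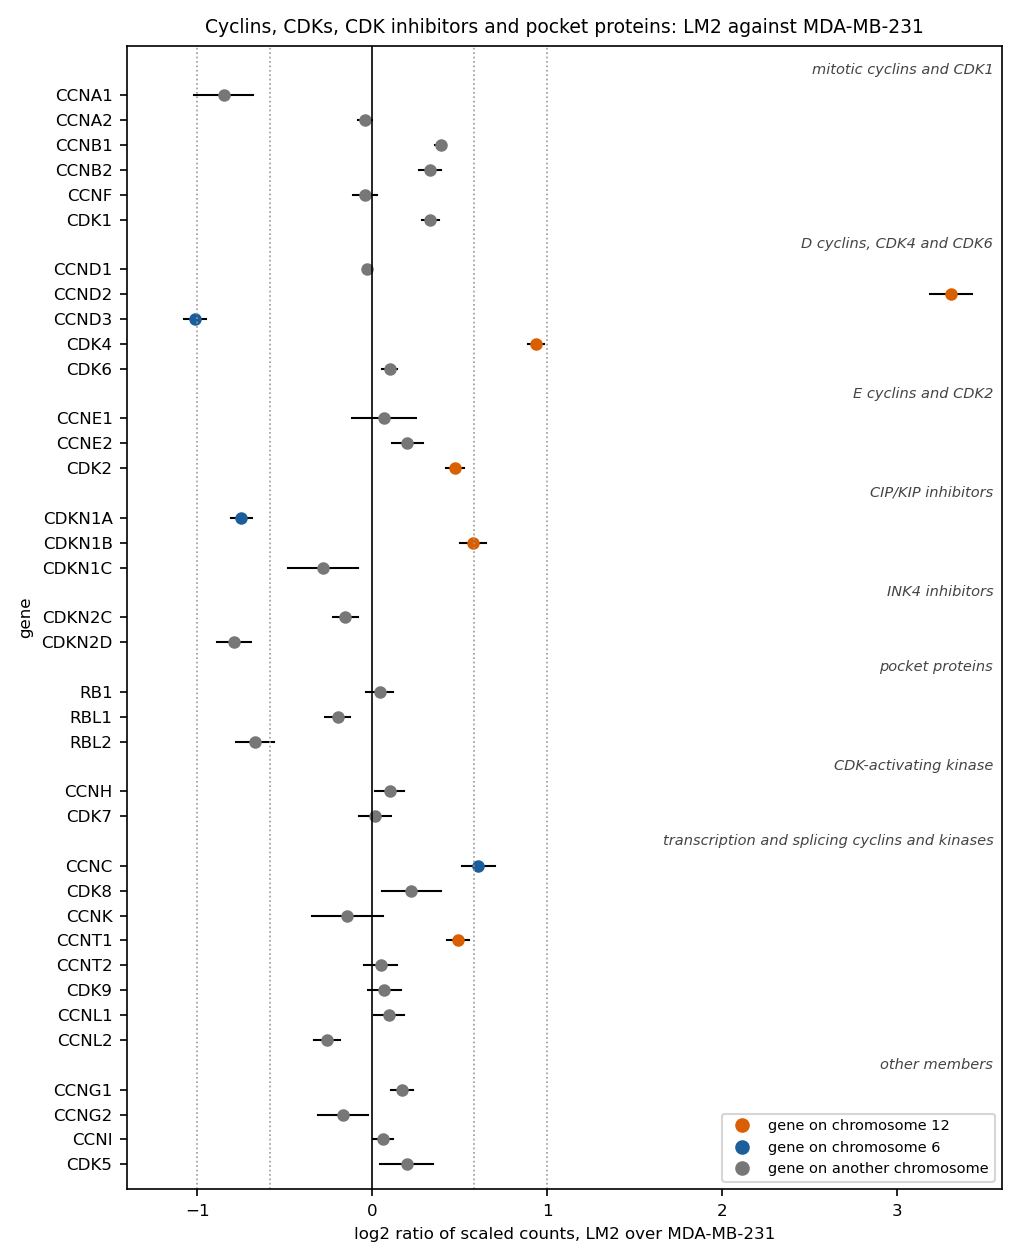
Log2 ratio of scaled counts in LM2 over the parental line (x axis) for the 36 measured genes (y axis), ordered by role, where points are ratios, bars are 95% intervals of counting error, dotted lines mark 1.5-fold and 2-fold, and color marks chromosome 12, chromosome 6 or another chromosome. CCND2, at 3.31, stands far to the right, CCND3 is the lowest at -1.01, and the 5 genes on chromosome 12 are all to the right of 0.

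The D cyclins, which link growth signals to the start of the cycle, differed in their shares between the lines while their sum was similar. Levels between genes were compared in RPKM (counts per length of transcript, scaled to the size of the column). CCND1 had 44245 counts in the parental line and 42788 in LM2, or 78.9 and 77.3 RPKM, the highest level of the group in both lines, and its ratio was 1.02-fold lower in LM2 (interval 1.01 to 1.03). CCND2 (chromosome 12, 4273762 to 4305353 in GRCh38) had 623 counts in the parental line and 6087 in LM2, or 0.731 and 7.24 RPKM. CCND2 was thus 9.90-fold higher in LM2 (interval 9.11 to 10.8), and it was 36th by RPKM among the members in the parental line and 18th in LM2.

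CCND3 (chromosome 6, 41934933 to 42050035) was lower in LM2, with 6048 counts in the parental line and 2956 in LM2, or 22.6 and 11.2 RPKM. The difference was 2.02-fold (interval 1.93 to 2.11), the interval included 2-fold, and with TMM scaling or on log2(RPKM + 1) the difference fell short of 2-fold. Summed over the D cyclins, the level was 102 RPKM in the parental line and 95.8 RPKM in LM2. Within that sum CCND1 made up 77.2% and 80.8%, CCND3 22.1% and 11.7%, and CCND2 0.715% and 7.56%. CCND3 RNA exceeded CCND2 RNA 30.9-fold in the parental line and 1.54-fold in LM2.

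CDK4, the main partner of the D cyclins here by RNA, had 6017 counts in the parental line and 11382 in LM2 and was 1.92-fold higher in LM2 (interval 1.86 to 1.98). Its level of 23.0 RPKM in the parental line and 44.1 RPKM in LM2 put it 5th and then 3rd among the members. CDK6, the other D cyclin kinase, had 7950 and 8413 counts and differed by 1.07-fold (interval 1.04 to 1.11, higher in LM2). Together CDK4 and CDK6 came to 28.2 RPKM in the parental line and 49.6 RPKM in LM2, and CDK4 held 81.6% and 88.8% of that. The D cyclin RNA per CDK4 and CDK6 RNA was therefore 3.63 in the parental line and 1.93 in LM2, on the RPKM scale.

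**Figure D2:**
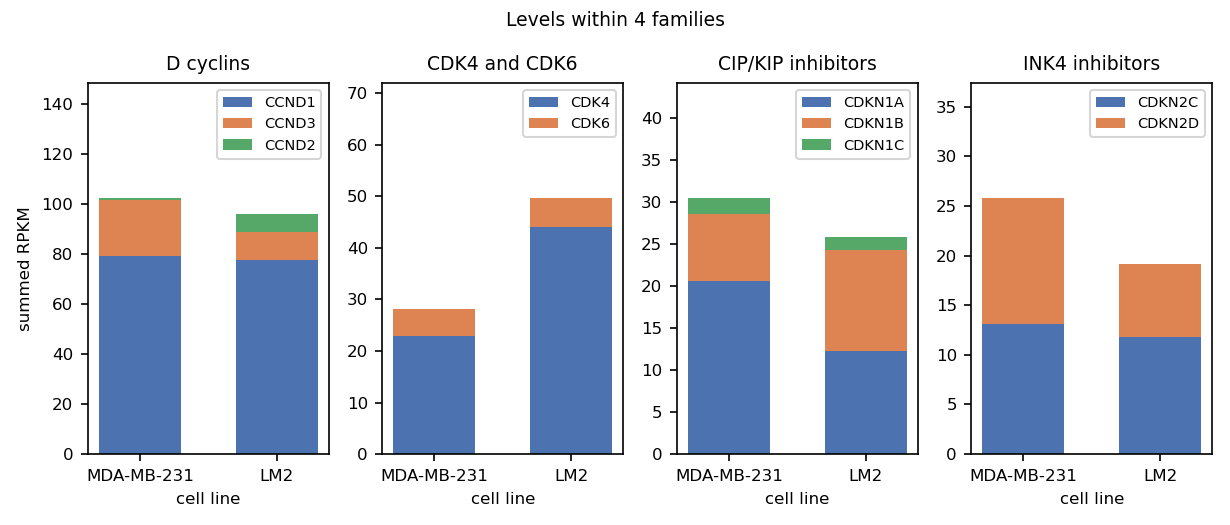
Summed RPKM (y axis) in the parental line and LM2 (x axis) of the D cyclins, of CDK4 and CDK6, of the CIP/KIP inhibitors and of the INK4 inhibitors, each panel with its own y scale from 0 and stacked by gene, 1 column of counts per bar and so without error bars. The D cyclin bars are of similar height (102 and 95.8), whereas that of CDK4 and CDK6 is taller in LM2 (28.2 and 49.6) and those of both inhibitor families are shorter.

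The INK4 family, the inhibitors of CDK4 and CDK6, was present through 2 of its 4 genes. CDKN2A (p16) and CDKN2B (p15) had 0 counts in both lines. At a limit of 3 counts per column this allows at most 0.0183 RPKM in the parental line and 0.0185 RPKM in LM2 for CDKN2A, and 0.00595 and 0.00602 RPKM for CDKN2B. Loss of CDKN2A from the genome is a known feature of MDA-MB-231. Around these genes on chromosome 9 (GRCh38), 24 protein-coding genes in a row, from HACD4 (start 20999509) to IZUMO3 (end 24545897), had at most 3 counts in either line, and 23 of them had 0 in both.

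The cause of these zeros was not tested. Of the 24 genes, 16 were interferon genes, and the others included MTAP, a methionine salvage enzyme, with 3 counts in the parental line and 1 in LM2. KLHL9, a ubiquitin ligase adaptor, had 0 in both. The nearest genes outside the run were well covered, FOCAD with 631 and 752 counts and TUSC1 with 803 and 607. The antisense RNA of the locus, CDKN2B-AS1, was listed with 30 transcripts, all at 0 in both lines, while 22.4% of all transcripts in the table were at 0 in both.

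The other INK4 genes were both lower in LM2 by the transcript used. CDKN2C (p18) had 3567 counts in the parental line and 3168 in LM2 (1.11-fold lower, interval 1.06 to 1.17), a direction that another of its transcripts did not share. CDKN2D (p19; chromosome 19, 10566460 to 10568979) had 2322 and 1326 counts, or 12.7 and 7.35 RPKM, and was 1.73-fold lower in LM2 (interval 1.61 to 1.85). The RNA of CDKN2C and CDKN2D per RNA of CDK4 and CDK6 was 0.914 in the parental line and 0.385 in LM2.

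The CIP/KIP inhibitors went in different directions. CDKN1A (p21; chromosome 6, 36676463 to 36687332), an inhibitor best known for arrest after DNA damage, had 6101 counts in the parental line and 3587 in LM2, or 20.6 and 12.3 RPKM, and was 1.68-fold lower in LM2 (interval 1.61 to 1.75). CDKN1B (p27), the inhibitor typical of resting cells, had 2546 and 3749 counts, or 8.07 and 12.05 RPKM, and was higher in LM2 by the 1.49-fold given above. CDKN1C (p57), an imprinted gene, was low, with 461 and 375 counts and 1.21-fold less in LM2 (interval 1.06 to 1.39).

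On the RPKM scale CDKN1A exceeded CDKN1B 2.55-fold in the parental line, and in LM2 they stood at a ratio of 1.02. CDKN1A made up 67.5% of CIP/KIP RNA in the parental line and 47.5% in LM2, and CDKN1B 26.5% and 46.7%. The family sum was 30.5 RPKM in the parental line and 25.8 RPKM in LM2. Set against the summed RNA of CDK1, CDK2, CDK4 and CDK6, this was 0.426 and 0.242.

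Among the pocket proteins, RB1, the retinoblastoma protein, was near equal, with 2634 and 2678 counts (ratio 1.03, interval 0.976 to 1.09). RBL1 (p107) had 3329 counts in the parental line and 2866 in LM2 and was 1.15-fold lower in LM2 (interval 1.09 to 1.21). RBL2 (p130; chromosome 16, 53434471 to 53491648), the pocket protein of the DREAM repressor complex in resting cells, had 1796 and 1115 counts, or 2.81 and 1.77 RPKM, and was 1.59-fold lower in LM2 (interval 1.47 to 1.71), a difference past 1.5-fold in 9 of 10 alternative settings. RBL2 made up 21.6% of pocket protein RNA in the parental line and 15.6% in LM2.

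The kinase and cyclins of S phase entry were within 1.5-fold. CDK2 had 5239 counts in the parental line and 7178 in LM2 (1.39-fold higher, interval 1.34 to 1.44). CCNE2 had 2031 and 2305 counts (1.15-fold higher, interval 1.08 to 1.22). CCNE1 had 498 and 515 counts, and its interval for the ratio, 0.925 to 1.19, included 1. CCNE2 exceeded CCNE1 on the RPKM scale 2.91-fold in the parental line and 3.20-fold in LM2.

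**Figure D3:**
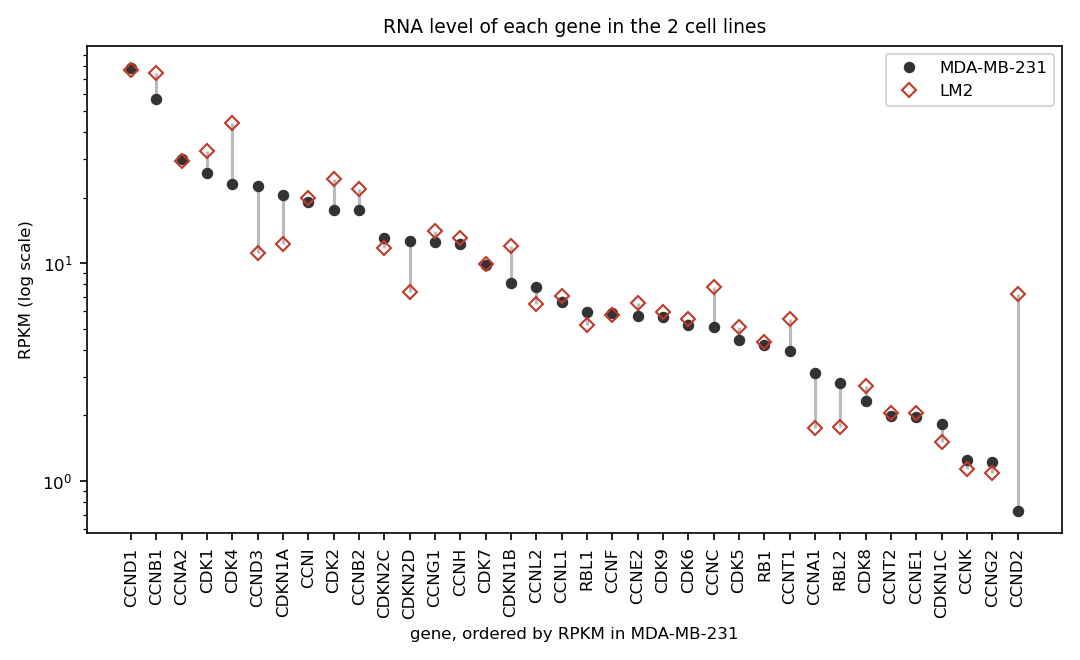
RPKM on a log scale (y axis) of the 36 measured genes (x axis, ordered by their level in the parental line), with filled circles for the parental line, open diamonds for LM2 and a gray line between them, 1 column of counts per cell line. CCND1 leads in both lines, the longest line belongs to CCND2 at the far right, and the next in length are those of CCND3, CDK4, CCNA1, CDKN2D and CDKN1A.

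The mitotic members split in 3 ways. CCNB1, CCNB2 and CDK1, which form the kinase of mitotic entry, were each higher in LM2 by a similar amount. CCNB1 had 16081 counts in the parental line and 20815 in LM2, or 56.8 and 74.5 RPKM, the level next to CCND1 in both lines, and was 1.31-fold higher (interval 1.28 to 1.34). CCNB2 had 3538 and 4388 counts (1.26-fold higher, interval 1.20 to 1.31), and CDK1 had 6482 and 8053 (1.26-fold higher, interval 1.22 to 1.30). The ratio of CCNB1 to CCNB2 on the RPKM scale was 3.25 and 3.39.

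CCNA2, the A cyclin of dividing somatic cells, and CCNF, the substrate receptor of a ubiquitin ligase, were close to equal. CCNA2 had 11029 counts in the parental line and 10588 in LM2 (1.03-fold lower), and CCNF had 3323 and 3188 (1.03-fold lower, with an interval that included 1). CCNA1 (chromosome 13, 36431517 to 36442870), the A cyclin known mainly from the male germ line and some leukemias, had 806 and 442 counts, or 3.14 and 1.75 RPKM, and was 1.80-fold lower in LM2 (interval 1.60 to 2.03). The A cyclins thus stood at a ratio of CCNA2 to CCNA1 of 9.60 in the parental line and 16.8 in LM2.

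Genes peaking in late cell cycle often carry a CCAAT box and, near it, the cell cycle genes homology region (CHR, letters TTTGAA or TTTAAA), where the DREAM and MuvB complexes bind. Both motifs were sought on either strand in the RefSeq promoter windows (GRCh38.p14, 250 bases before to 50 after a start), which were at hand for 33 members. The windows of 7 members held both, namely CCNB1, CCNB2, CCNF, CDK1, CCNC, CDKN1B and RBL2, some with several windows. Counted by window, 8 of the 46 windows of members (17.4%) held the pair, as did 9.27% of all 35116 promoter windows. CCAAT, with or without a CHR, was in 19 of the 46 (41.3%) and in 34.6% of all windows. These counts overlap, since CCAAT is part of the pair.
Stretches of 30 bases, 5′ to 3′ on the strand of the gene, are given for the mitotic members because they share a role but not a ratio. Capitals mark the CHR nearest before the start or, in CCNA2, the CCAAT box in its reverse form.
CCNB1 (chr5:69167108-69167137, plus strand): agcagtgcggggTTTAAAtctgaggctagg
CCNB2 (chr15:59105105-59105134, plus strand): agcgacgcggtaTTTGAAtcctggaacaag
CDK1 (chr10:60778448-60778477, plus strand): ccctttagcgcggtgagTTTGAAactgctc
CCNF (chr16:2429350-2429379, plus strand): gggccgggtgcgTTTGAAaactggggtggg
CCNA2 (chr4:121823922-121823951, minus strand): gcgagcgctttcATTGGtccatttcaatag
In CCNB1 and CCNB2, the pair with ratios of 1.31 and 1.26, the CHR began 30 and 29 bases before the start, and the nearest upstream CCAAT box lay 25 bases ahead of it in both. In CDK1 the CHR shown lay 13 bases before the second of its listed starts, which are 147 bases apart, with a CCAAT box 33 bases ahead, and it was 1 of 3 TTTGAA matches in that window. CCNB2 had 1 further CHR match, TTTAAA, in its window. CCNF had the pair farther out, at 85 and 106 bases before the start. In CCNA2 the CCAAT box was 56 bases before the start, and neither TTTGAA nor TTTAAA was found in the window. Other forms of the CHR were not sought. A match of letters is a description only, and the pair asks only for both motifs in 1 window. In the RBL2 window with the pair, the CHR match lay after the start. In CCNC the motifs lay farther apart than in CCNB1, CCNB2 or CDK1. Of the 7 members with the pair, 5 were higher in LM2 (CCNB1, CCNB2, CDK1, CCNC and CDKN1B). CCNF was near equal and RBL2 was lower. Among all 36 measured members, the counting interval lay wholly above a ratio of 1 for 17, these 5 included. Whether the pair goes with the ratio was not tested.

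Cyclins and kinases of transcription and splicing were mostly near equal, apart from CCNC and CCNT1. CCNC (chromosome 6, 99542387 to 99568814), the cyclin of the Mediator kinase module, had 1535 counts in the parental line and 2305 in LM2, or 5.09 and 7.75 RPKM, the 1.52-fold difference given above, which was past 1.5-fold in 7 of 10 alternative settings. Its kinase CDK8 had 541 and 623 counts (1.17-fold higher, interval 1.04 to 1.31). CCNT1, a cyclin of the elongation kinase P-TEFb, had 3668 and 5086 counts (1.40-fold higher, interval 1.35 to 1.47). By contrast, the alternative P-TEFb cyclin CCNT2 (1798 and 1837 counts) and the P-TEFb kinase CDK9 (1835 and 1902) had intervals that included a ratio of 1.

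The splicing-linked cyclins differed slightly and in opposite directions. CCNL1 had 2276 counts in the parental line and 2402 in LM2 (1.07-fold higher), and CCNL2 had 3166 and 2613 (1.20-fold lower, interval 1.14 to 1.26). CCNK, a cyclin of CDK12 and CDK13, was the least counted measured member in the parental line, with 427 and 382 counts. For the CDK-activating kinase, CCNH had 2403 and 2541 counts and CDK7 had 1944 and 1943, ratios of 1.07 and 1.01. The remaining members were within 1.15-fold: CCNG1, an atypical cyclin, with 4025 and 4474 counts, CCNG2 with 876 and 770, CCNI with 4673 and 4812, and CDK5, a kinase best known from neurons, with 692 and 783.

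The table held 70 transcripts of the 38 genes, and 19 genes had only 1. Of the 28 further transcripts at the minimum, 25 differed from the transcript used by less than 0.1 in log2 ratio, and the largest difference was 0.24, in CDKN2C. There the direction turned, since the other transcript had 1435 and 1501 counts (1.06-fold higher in LM2, with an interval that included 1). It also turned in CCNH, 1.07-fold higher by the transcript used. Another CCNH transcript had 866 and 813 counts (1.05-fold lower in LM2, with an interval that included 1). The other transcript of CCNL2 was 1.40-fold lower, against 1.20-fold for the one used. Transcripts of a gene share reads and are no replicates.

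The sources used here do not say whether the counts separate strands, so reads of genes overlapping on the opposite strand may be included. Overlap was taken over all exon bases of a gene in GENCODE 29, which can exceed those of the transcript counted. For CCNK these were 8220 against 2606 bases, and the overlap of the counted transcripts is not given. By this measure the overlap was 59.5% for CCNK with CCDC85C, 43.2% for CDK4 with TSPAN31 and 37.0% for CCNE2 with INTS8. The partner of CDK4 was minor, with TSPAN31 at 3.34 RPKM in the parental line and 4.58 RPKM in LM2. CCDC85C (8.65 and 3.68 RPKM) was above CCNK (1.254 and 1.136 RPKM), and INTS8 (4.18 and 5.50 RPKM) was close to CCNE2 (5.70 and 6.56 RPKM), so these members' values are uncertain. The same holds for other members with smaller overlaps but partners near or above their own level. RBL2 (2.81 and 1.77 RPKM) overlapped by 8.33% with AKTIP (2.16 and 2.07 RPKM). CDK2 (17.5 and 24.3 RPKM) overlapped by 14.5% with AC025162.1 (20.8 and 29.7 RPKM). CCNH (12.2 and 13.1 RPKM) overlapped by 12.7% with RASA1 (11.8 and 10.7 RPKM), and CDK5 (4.44 and 5.09 RPKM) by 11.3% with SLC4A2 (15.4 and 15.6 RPKM). CCND2-AS1, opposite CCND2, had 14 counts in the parental line and 118 in LM2 and overlapped 1.76% of CCND2 exon bases.

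The members that differed most were next compared with the genes around them, namely the 15 nearest measured protein-coding genes on each side. The 30 neighbours of CCND3 had a median log2 ratio of -0.78, and 24 of them were over 1.5-fold lower in LM2. For CDKN1A the median was -0.81, with 26 of 30 over 1.5-fold lower, so that CDKN1A itself (-0.75) lay within the range of its surroundings. These members are on the same chromosome, and their neighbour sets shared 1 gene. CDK4 (0.94) had a neighbour median of 0.64, with 16 of 30 over 1.5-fold higher.

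CCND2 stood apart from most of its surroundings. Its neighbours had a median of 0.54 and 29 of the 30 were below it, while 1 was slightly above it, at 3.34. CCNA1, RBL2, CDKN2D and CCNC also lay toward one end of the genes around them. The neighbour medians were 0.20 for CCNA1 and -0.01 for RBL2, with 1 of 30 neighbours below each of these members, although 6 neighbours of CCNA1 were over 1.5-fold lower too. For CDKN2D the median was -0.28, with 5 of 30 below it and 6 over 1.5-fold lower, and for CCNC it was 0.13, with 26 of 30 below it. Of the 8 members past 1.5-fold, 4 (CCND2, CCND3, CDK4 and CDKN1A) had a neighbour median of the same sign and over 0.4 in size. So did CDK1, CDK2, CDKN1B and CCNT1, which were within 1.5-fold. The share over all genes is not given, so this count is no trait of the members.

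All 5 members on chromosome 12 (CCND2, CDK4, CDK2, CDKN1B and CCNT1) were higher in LM2, the smallest at a log2 ratio of 0.47. Of these, only CCND2 and CDK4 passed 1.5-fold. The share of all chromosome 12 genes with a ratio above 1 is not given. The neighbour medians of CDK2 (0.55), CDKN1B (0.49) and CCNT1 (0.43) were close to those members' own ratios of 0.47, 0.58 and 0.49. Of the 660 measured coding genes of chromosome 12, 28.9% were over 1.5-fold higher, with a median of 0.33. Of the 673 on chromosome 6, 36.1% were over 1.5-fold lower, with a median of -0.33. The other 28 measured members, on neither chromosome, had a median of 0.05. Of them, 3 (CCNA1, CDKN2D and RBL2) passed 1.5-fold on the lower side and 0 on the higher. This subset was chosen after seeing the data. The shares of all genes on neither chromosome are not given, so these counts are no trait of the members.

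Across the 36 measured members, the member's ratio and its neighbour median had a Spearman rho of 0.55 and a Pearson r of 0.59, and without CCND2 0.51 and 0.68 over 35. These describe 1 pair of columns, 3 pairs of members share neighbours, and no such value over all genes is given. The part of the surrounding genes in the members' ratios was not tested.

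**Figure D4:**
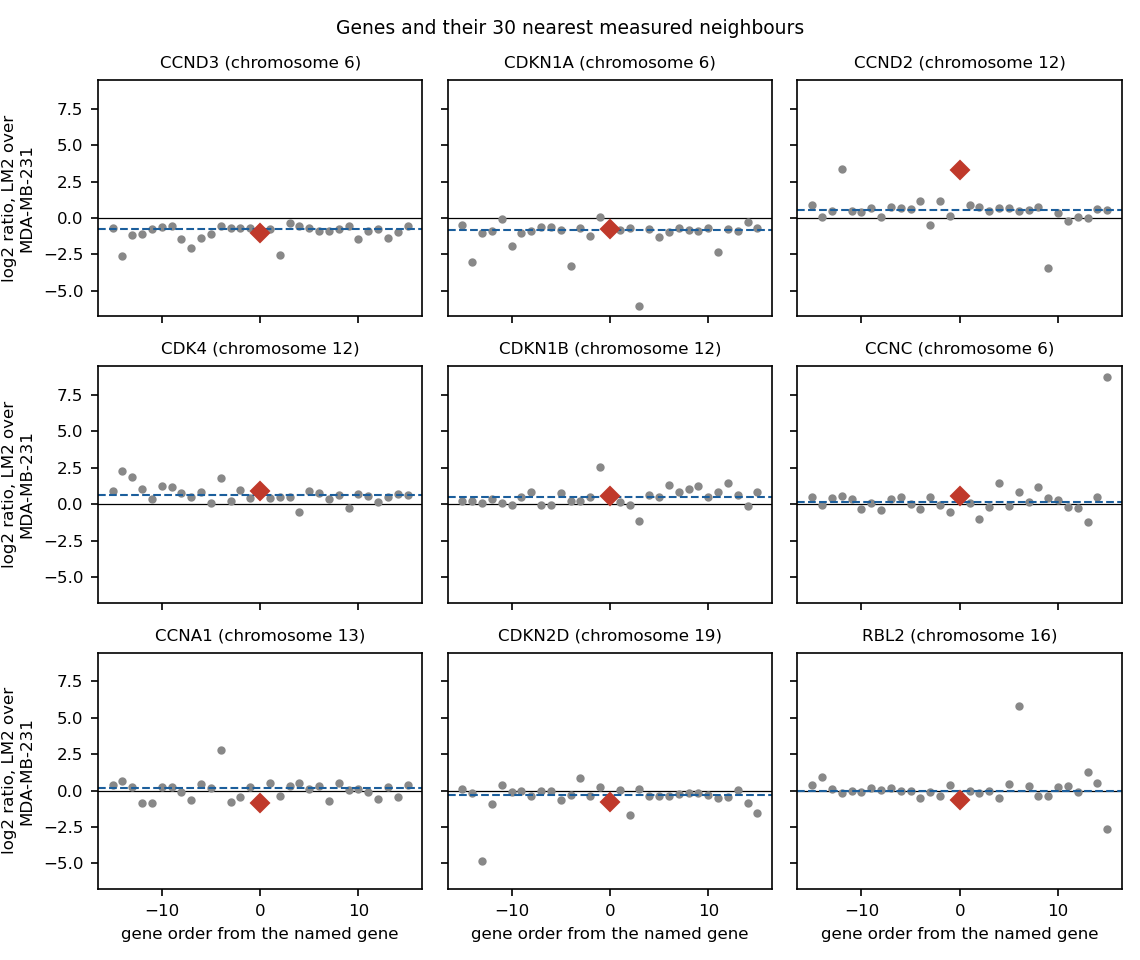
Log2 ratio in LM2 over the parental line (y axis) of 9 genes (red diamonds) and of their 30 nearest measured coding genes (gray points, x axis: order along the chromosome), with the neighbour median as a dashed line, for the 8 members past 1.5-fold and CDKN1B. CDKN1A sits on a line of lower neighbours (median -0.81), whereas CCND2 (3.31) lies far above its neighbour median (0.54) but has 1 neighbour above it. CCNA1 and RBL2 lie below their neighbour medians.

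Other genes of the cell cycle were examined by fixed lists, beside the shares of all genes given above. Of 35 measured S phase genes, 8 were over 1.5-fold higher in LM2 and 0 lower, and the median log2 ratio was 0.41. The largest were GINS3 (780 and 1659 counts, 2.16-fold), part of the replicative helicase, PRIM1 (775 and 1426, 1.86-fold), the primase subunit, and FEN1 (11725 and 19170, 1.66-fold), the flap endonuclease. Their neighbour medians were 0.10, 0.53 and 0.32 in the same order. Away from chromosomes 6 and 12, 7 of 31 were over 1.5-fold higher, with a median of 0.41. That median exceeded the log2 ratios of CCNE1 (0.07) and CCNE2 (0.20) and was near that of CDK2 (0.47).

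Mitosis genes and E2F and DREAM factors had few members past 1.5-fold. Of 32 mitosis genes 1 was over 1.5-fold higher (PRC1, the spindle midzone protein, 12820 and 25794 counts, 2.04-fold) and 1 lower (ANLN, anillin of the cleavage furrow, 1.61-fold), with a median of 0.12. The neighbours of PRC1 had a median of 0.92 and those of ANLN one of -0.26. Of 18 E2F and DREAM factors, FOXM1, the activator of mitotic genes, was 1.69-fold higher (4252 and 7097 counts). MYBL2, the B-MYB partner of the MuvB complex, was 2.08-fold lower (2550 and 1210), and the median of the list was 0.09. FOXM1 is on chromosome 12 with a neighbour median of 0.56, and that of MYBL2 was -0.40. Of 28 CDK phosphatases, kinases and ubiquitin ligases, 0 passed 1.5-fold, from CDC16, an anaphase-promoting complex subunit (1.32-fold lower), to DTL, a receptor that targets CDKN1A for degradation (1.47-fold higher), with a median of 0.14.

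**Figure D5:**
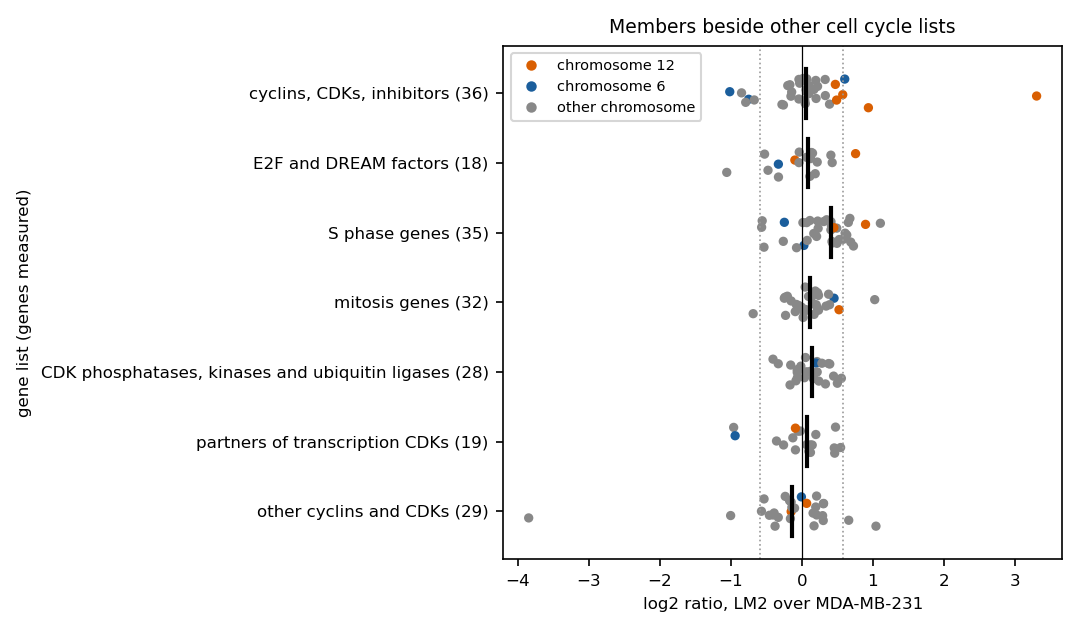
Log2 ratio in LM2 over the parental line (x axis) of each measured gene of the cyclin, CDK and inhibitor group and of 6 other lists (y axis, number of genes in brackets), with the list median as a black bar, 1.5-fold as dotted lines and color for chromosomes 12 and 6; vertical scatter has no meaning. The median of S phase genes (0.41) lies to the right of the others, which run from -0.14 to 0.14.

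Further cyclins, CDKs and CDK activators, 29 of 34 of them measured, had a median of -0.14, with 2 over 1.5-fold lower and 2 higher. CDK20, a kinase linked to cilia, had 167 counts in the parental line and 11 in LM2 and was 15-fold lower (interval 8.16 to 30.6), while the neighbour median was 0.01. CDK5R1, the activator of CDK5, was over 2-fold lower (678 and 334 counts), beside a CDK5 that was 1.15-fold higher. CCNB3, a meiotic B cyclin, was 2.07-fold higher at 95 and 194 counts (interval 1.61 to 2.67). CDKL3 was 1.59-fold higher at only 69 and 108 counts, and its interval, 1.16 to 2.18, included 1.5-fold. Among 19 partners of the transcription CDKs, 2 were over 1.5-fold lower and 0 higher, namely ERCC2, a helicase of TFIIH (1.94-fold), and NELFE, of the pausing factor NELF (1.92-fold), with a median of 0.07. NELFE had only 249 and 128 counts (interval 1.55 to 2.40) and, on chromosome 6, a neighbour median of -0.61. The neighbour median of ERCC2 was -0.20.

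The labelled cell type was checked against its markers. VIM, KRT18, KRT8 and CD44 were abundant in both lines, at 14048 counts or more, and ESR1 and PGR, the hormone receptors absent from triple-negative cells, had at most 8 counts. KRT7 had 12456 counts in the parental line and 3902 in LM2, EPCAM 361 and 355, and ERBB2 2966 and 1922. Among markers of other cell types, CD3E and CDH5 were at 0, PTPRC at 8 and 7 counts, and DCN at 1 and 0, whereas PECAM1 had 48 and 343 and COL1A1 209 and 532. The part of these differences in the members' ratios was not tested.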

How the data were processed

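RNA sequencing of the parental line MDA-MB-231 and of LM2 was analysed from the tables of the authors. Per the submitters' processing notes, the tools were bcl2fastq and TopHat2 2.0.13 and the build was hg19 (GRCh37). The sources used here name no counting program, strand setting or annotation. The authors deposited whole-number read counts for 65423 transcripts and RPKM values, and each deposited RPKM equals the count scaled by the listed length and the column total within a relative difference of 4.98e-06. Whether a column is 1 library or pools both labelled samples is not given.

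Symbols were paired by RefSeq (GRCh38.p14) and GENCODE release 29, for 33714 of 34791 NM, 6795 of 7527 NR and 21822 of 23105 ENST transcripts. Per gene the transcript with the highest mean count was used. For a ratio, counts were divided by their column totals and LM2 was set over the parental line, with 0.5 counts added on the log2 scale and an exact interval at 95% for the fold, computed in Python 3.11.15 with scipy 1.17.1 and tested on simulated data. A gene was called past 1.5-fold or 2-fold at a mean of at least 50 counts, and a count of 0 was limited by 3 counts. No p-value was computed. As alternatives, scaling factors came from edgeR 4.0.16 (TMM, upper quartile) and DESeq2 1.42.0 (size factors) in R 4.3.3, the 12 largest transcripts were left out, NM transcripts alone were used, the minimum was changed and RPKM with a pseudocount took the place of counts. Positions are those of GRCh38 and were not converted.

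The members, lists and thresholds were chosen with earlier results of these data known. Named were all members, and of each other list up to 3 genes with the largest ratios past 1.5-fold in each direction, or the single largest and smallest where none passed. Neighbour genes, the run of genes around CDKN2A and overlapping genes were named after their values were seen. Some marker genes and a gene list are not reported here.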

Additional observations from a re-analysis of the deposited data

How the results depend on the processing

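Across 360 recomputed ratios of single members (10 alternatives of scaling, transcript choice and unit), 332 stayed within the counting interval and 28 left it. None of the 8 members past 1.5-fold changed direction, but 7 values of 4 members near equality (CCNI, RB1, CDK7 and CCNT2, at most 0.06 in size) changed sign with totals without the 12 largest transcripts or of NM transcripts only. The largest move was that of CCND2, from 3.31 to 2.25 with log2(RPKM + 1). The number of members over 2-fold lower was 0 with TMM factors and 0 with log2(RPKM + 1), since CCND3 then fell short of 2-fold; CCND3 was over 2-fold in 8 of the 10 alternatives. CCNC was over 1.5-fold in 7, RBL2 in 9 and CDKN1B in 1 of the 10. In the 28 members outside chromosomes 6 and 12, a comparison chosen after seeing the data, the members over 2-fold lower were 0, over 2-fold higher 0, over 1.5-fold lower 3 and over 1.5-fold higher 0. The shares of all genes outside these chromosomes are not given. No paired analysis was possible because each cell line has 1 column of counts, and for the same reason no replicate could be left out. Counting error limits mainly members near equality, near a fold limit or with few counts, and the spread between cultures is unknown.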
